A study of Drosophila melanogaster with 3 samples.

Results

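The aminoacyl-tRNA synthetase genes of Drosophila melanogaster comprise 33 of the 13945 protein-coding genes on the main chromosome arms. They were chosen by name: the symbol is a three-letter amino acid followed by RS, for the enzyme of the cytosol, or by RS-m, for the mitochondrial enzyme, and GluProRS was added. By symbol, 18 of the 33 genes were counted as cytosolic and 15 as mitochondrial forms. The set has no RS-m gene for glutamine, glycine, histidine, lysine or threonine. The naming rule also leaves out alpha-PheRS and beta-PheRS, the genes of the cytosolic phenylalanine enzyme, while PheRS-m is a member. A gene that makes both enzymes was counted as cytosolic. Binding of the forkhead transcription factor foxo near these genes was read from chromatin immunoprecipitation sequencing (ChIP-seq) of whole wandering larvae of the third instar, of mixed sex and of an age given as unknown. All samples come from 1 line, foxo-MiMIC-GFP, whose foxo gene carries an intronic eGFP exon and makes a tagged protein, which was pulled down by an anti-GFP antibody. There are 3 biological replicates in 1 group, so the comparisons are between genes, not between conditions. Neither an untagged line nor an input library was analysed here, and peaks that need foxo cannot be told apart from peaks that do not. Whole larvae mix all tissues, and no cell type can be assigned to a peak.

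Aminoacyl-tRNA synthetases join each amino acid to its own tRNA and so supply the ribosome with charged tRNAs. Most amino acids have a nuclear gene for the cytosolic enzyme and another for the enzyme that is imported into mitochondria, and a few genes make both. The enzymes fall into classes I and II, which differ in the fold of their catalytic domain, and in animals several cytosolic enzymes join in a multi-synthetase complex. foxo is the forkhead factor that insulin signalling keeps out of the nucleus, and it is known for its part in growth control, metabolism and stress resistance.

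The sequences under the peaks of 6 bound genes are shown because the peaks of 5 of them lie in the short stretch between the synthetase gene and its neighbour, and the last lies farther away, in an intron of the neighbour. A gene was called bound when the summit of a peak in the authors' optimal list lay within 1000 bp of one of its annotated transcription start sites (TSSs). Each run holds 201 bases of the dm6 reference, read 5' to 3' on the strand of the synthetase gene, with the summit at base 101, and has no base of an annotated exon. The windows are chr3R:23958420-23958620 on the minus strand for GluProRS, chr3L:22288432-22288632 on the plus strand for IleRS, chrX:15844219-15844419 on the minus strand for ArgRS and chr2L:12103464-12103664 on the plus strand for ThrRS. They are chr3R:7886826-7887026 for ArgRS-m and chr3L:4824849-4825049 for LeuRS-m, both on the plus strand. TyrRS is a gene without a peak, and its run is the 250 bases before its start, chr3L:16419303-16419552 on the minus strand. Capitals mark matches, on either strand, to a forkhead core (the word GTAAACA, its form GTAAATA, the word ATAAACA or its form ATAAATA) or, in IleRS, also to the DNA replication-related element TATCGATA.
GluProRS: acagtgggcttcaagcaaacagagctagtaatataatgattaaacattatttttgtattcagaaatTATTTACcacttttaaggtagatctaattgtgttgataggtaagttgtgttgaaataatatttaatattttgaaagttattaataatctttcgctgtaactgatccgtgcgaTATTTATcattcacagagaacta
IleRS: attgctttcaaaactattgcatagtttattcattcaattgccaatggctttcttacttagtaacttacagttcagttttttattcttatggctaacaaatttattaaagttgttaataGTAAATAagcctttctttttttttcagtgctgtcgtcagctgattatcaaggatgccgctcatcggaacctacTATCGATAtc
ArgRS: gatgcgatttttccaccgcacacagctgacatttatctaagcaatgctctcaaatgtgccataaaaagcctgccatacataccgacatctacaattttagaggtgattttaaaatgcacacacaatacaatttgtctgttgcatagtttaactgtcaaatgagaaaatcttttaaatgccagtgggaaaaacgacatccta
ThrRS: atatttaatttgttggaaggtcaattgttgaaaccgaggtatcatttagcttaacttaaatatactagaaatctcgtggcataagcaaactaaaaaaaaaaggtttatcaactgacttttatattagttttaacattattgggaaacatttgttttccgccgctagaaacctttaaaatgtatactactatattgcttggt
ArgRS-m: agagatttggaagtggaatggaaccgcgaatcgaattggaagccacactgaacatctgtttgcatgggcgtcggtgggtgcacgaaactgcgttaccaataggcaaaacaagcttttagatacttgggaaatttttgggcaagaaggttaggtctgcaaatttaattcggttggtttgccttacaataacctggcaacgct
LeuRS-m: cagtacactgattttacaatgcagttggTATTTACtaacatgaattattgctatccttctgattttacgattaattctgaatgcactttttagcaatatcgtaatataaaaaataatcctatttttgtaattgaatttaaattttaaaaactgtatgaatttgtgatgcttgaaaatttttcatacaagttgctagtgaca
TyrRS: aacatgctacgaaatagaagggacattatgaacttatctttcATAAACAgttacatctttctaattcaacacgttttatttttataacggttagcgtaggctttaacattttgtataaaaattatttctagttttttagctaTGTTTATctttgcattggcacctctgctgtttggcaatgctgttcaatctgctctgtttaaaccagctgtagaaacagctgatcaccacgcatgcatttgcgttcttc
GluProRS holds 2 forkhead core matches, IleRS holds 1 of these and 1 replication-related element, and LeuRS-m holds 1 forkhead core match. ArgRS, ThrRS and ArgRS-m have peaks of signal 850, 762 and 573 but no marked match, whereas TyrRS has 2 forkhead core matches and no peak. These matches describe letters in the windows and are not shown to be sites.

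foxo-eGFP peaks stood at most cytosolic synthetase genes and at few mitochondrial ones. In the optimal list of 9766 peaks, 12 of the 18 cytosolic genes were bound (66.7%) and 3 of the 15 mitochondrial genes (20.0%). Together 15 of 33 were bound (45.5%), where 32.8% of all protein-coding genes were. The bound cytosolic genes were AlaRS, ArgRS, AsnRS, AspRS, GluProRS, GlyRS, IleRS, LysRS, MetRS, SerRS, ThrRS and ValRS, and the bound mitochondrial genes were ArgRS-m, CysRS-m and LeuRS-m. No optimal summit lay within 1000 bp of a TSS of CysRS, GlnRS, HisRS, LeuRS, TrpRS or TyrRS, nor of the other 12 mitochondrial genes.

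The difference between the cytosolic and the mitochondrial forms was seen in each replicate alone. The 9766 peaks of highest signal of each replicate were used for this, of the 30000 regions deposited per replicate. The cytosolic share was 61.1% in replicate 1 and 66.7% in each of replicates 2 and 3 (mean 64.8% ± 3.21, SD, n = 3). The mitochondrial share was 26.7%, 26.7% and 33.3% (mean 28.9% ± 3.85, SD, n = 3). The lowest cytosolic share was above the highest mitochondrial share. The background, the share of all protein-coding genes, was 35.6%, 31.5% and 33.2% in replicates 1, 2 and 3, so that the cytosolic genes stood above it in 3 of 3 replicates. The mitochondrial genes stood below it in replicates 1 and 2 and at about the same share in replicate 3.

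The cytosolic share exceeded the mitochondrial share by 34.4, 40 and 33.3 percentage points in the 3 replicates, and the mean difference was 35.9 points ± 3.57 (SD, n = 3; exact sign-flip permutation test over replicates, two-sided, p = 0.25). With 3 replicates this test cannot give a p below 0.25, so no difference here could pass a usual threshold. The same genes are called in every replicate, so the SD and p describe how repeatable the calls are. They do not measure the uncertainty that comes from having few genes of each form. Against all other protein-coding genes the cytosolic genes were higher by 25.5, 35.2 and 33.5 points (mean 31.4 ± 5.16, SD, n = 3; exact p = 0.25). The mitochondrial genes differed from the others by -8.9, -4.8 and 0.168 points (mean -4.51 ± 4.54, SD, n = 3; exact p = 0.5), a mean about the size of its spread. All 33 genes together were higher than other genes by 9.89, 17.0 and 18.3 points (mean 15.1 ± 4.55, SD, n = 3; exact p = 0.25). These are 4 of 11 such differences computed, and the smallest Benjamini-Hochberg adjusted p over the 11 was 0.306.

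**Figure D1:**
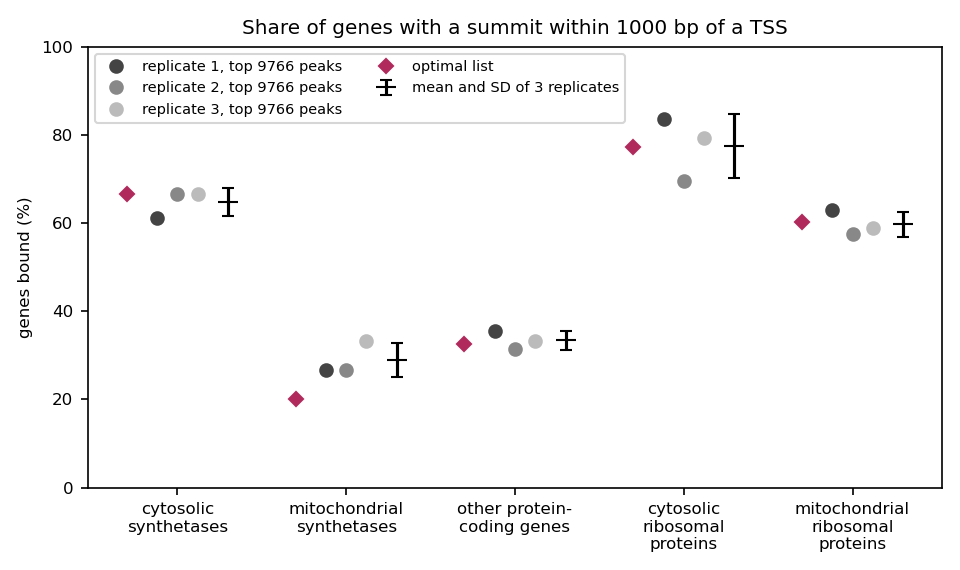
Share of genes bound, in percent, for 5 sets of genes: diamonds show the optimal list, circles the top 9766 peaks of each replicate, and crosses with bars the mean and SD of 3 replicates. The cytosolic synthetases lie between 61.1% and 66.7% in the replicates and the mitochondrial synthetases between 26.7% and 33.3%, near other protein-coding genes.

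The genes of both ribosomes give a scale for these shares, since they serve the same pair of translation systems. Of 92 genes for cytosolic ribosomal proteins 71 were bound (77.2%), and of 73 for mitochondrial ribosomal proteins 44 (60.3%). The plot of shares by replicate sets them beside the synthetases. Cytosolic synthetase genes differed from cytosolic ribosomal protein genes by -22.6, -2.9 and -12.7 points (mean -12.7 ± 9.84, SD, n = 3; exact p = 0.25). The mitochondrial synthetase genes differed from the mitochondrial ribosomal protein genes by -36.3, -30.9 and -25.6 points (mean -30.9 ± 5.39, SD, n = 3; exact p = 0.25). The highest share of the mitochondrial synthetases in a replicate, 33.3%, was below the lowest of the mitochondrial ribosomal protein genes, 57.5%. Among genes with an opposite-strand start within 1000 bp, the same difference was -33.0, -11.8 and -10.1 points (mean -18.3 ± 12.8, SD, n = 3; exact p = 0.25).

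Of the bound genes outside the multi-synthetase complex, as it is known from mammals, SerRS had the highest peak. SerRS charges tRNA(Ser). Its peak (dm6, 2L, 3037166 to 3037612) had a signal of 2013, the authors' peak height, and ranked 245 in the optimal list and 195, 302 and 334 in replicates 1, 2 and 3. The summit lay 23 bp downstream of a SerRS TSS, in a 5' UTR, and 31 bp upstream of the TSS of CG17260, which starts in the opposite direction. In each replicate it ranked above the highest peaks of the other bound synthetase genes listed here.

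AsnRS, which charges tRNA(Asn), had a pair of peaks on 2L in the space it shares with DCTN6-p27, a dynactin subunit gene. The higher (19131892 to 19132147) had a signal of 877 at -63 bp and ranked 1279 in the optimal list and 1216, 1198 and 1793 in the replicates. The other (19132146 to 19132298) had a signal of 458 at -263 bp, nearer to DCTN6-p27 (-106 bp), and ranked 4508, 3145 and 4991. Negative distances are upstream of the gene's nearest annotated start. Both peaks were matched by a summit within 100 bp in all replicates.

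ThrRS, the threonine enzyme, had 1 peak at -187 bp (2L, 12103349 to 12103747, signal 762, rank 1618), which ranked 2114, 1479 and 1679 in the replicates, and Patsas starts on its other side at -279 bp. AlaRS, the alanine enzyme, had a peak at -30 bp (2L, 8381762 to 8381935, signal 447, rank 3367) that ranked 3058, 4591 and 3022. AlaRS is the only bound member with no opposite-strand start within 1000 bp of its own. The other gene near its summit is CG13392, whose start lies 929 bp before the summit.

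GlyRS, the glycine enzyme, had overlapping peaks on 3L beside Plp, a centrosomal protein gene, and sstn. The peak at -188 bp (15094724 to 15095183, signal 400, rank 3826) had no matched summit in replicate 1 and ranked 3886 and 2443 in replicates 2 and 3. The peak at 12 bp downstream (15094924 to 15095383, signal 308, rank 5072) ranked 4372 and 3650 in replicates 1 and 3 and had no match in replicate 2. GlyRS was therefore bound in every replicate, at one or the other summit. ValRS, the valine enzyme, had a peak at -475 bp (2R, 13198287 to 13198511, signal 343, rank 4551), ranked 4056, 5199 and 4372, whose summit lay only 38 bp upstream of Kdm4B, a histone demethylase gene.

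Among the 8 enzymes of the multi-synthetase complex, 6 were bound: GluProRS, IleRS, ArgRS, AspRS, MetRS and LysRS. GlnRS and LeuRS were not. Outside the complex 6 of 10 cytosolic genes were bound. These are shares of 75.0% and 60.0%, where 32.8% of all protein-coding genes were bound. In the replicates the share was 62.5%, 62.5% and 75.0% in the complex and 60.0%, 70.0% and 60.0% outside it, so the order was not the same in all replicates. All protein-coding genes stood at 35.6%, 31.5% and 33.2%.

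GluProRS encodes a fused enzyme for glutamate and proline, and its peak on 3R (23958320 to 23958728) was the highest of the complex. It had a signal of 1275 and rank 683 in the optimal list, and ranks 670, 590 and 1047 in replicates 1, 2 and 3. The summit, in the middle of the sequence printed above, lay at -129 bp from GluProRS and -131 bp from AP-1sigma, a clathrin adaptor subunit gene, and so almost midway between their starts. IleRS, the isoleucine enzyme, had a peak at -133 bp (3L, 22288345 to 22288697, signal 1124, rank 859) that ranked 952, 797 and 943, opposite Hem, a subunit of the WAVE actin regulatory complex, at -337 bp. ArgRS, the arginine enzyme, had a peak at -174 bp (X, 15844133 to 15844477, signal 850, rank 1344), ranked 1583, 1022 and 2608, with the start of CG8578 slightly closer at -157 bp. These 3 peaks were in the highest 2608 of every replicate.

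AspRS, the aspartate enzyme, had a pair of peaks on 2R beside Nmda1. The higher (12879744 to 12879996, signal 539, rank 2634) lay at -398 bp, in an intron, had no match in replicate 1, and ranked 2694 and 1888 in replicates 2 and 3. The lower (12880084 to 12880335, signal 486, rank 3038) lay at -87 bp and ranked 4763, 3331 and 1884. Both summits lie inside the AspRS gene (12877004 to 12883168), and these distances are from an internal start. Both summits were nearer to a start of Nmda1 than to one of AspRS. MetRS, the methionine enzyme, had a peak at -121 bp (2R, 18850625 to 18850877, signal 495, rank 2956), ranked 2548, 3606 and 3670, at nearly equal distance from CG15084 (-124 bp).

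LysRS, the lysine enzyme, held the weakest call. Its peak (X, 9608662 to 9609121) had a signal of 153 and ranked 9647 of 9766, at -8 bp from LysRS and -54 bp from Hecw, a ubiquitin ligase gene. It ranked 10678, 11927 and 9002 in replicates 1, 2 and 3, so only replicate 3 held it among its top 9766 peaks. The lowest signal in the optimal list was 151.

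The 3 bound mitochondrial genes differed in where their peaks lay. LeuRS-m, the mitochondrial leucine enzyme, had the highest, on 3L (4824726 to 4825186, signal 1441, rank 537), which ranked 565, 614 and 477. This summit lay at -904 bp from LeuRS-m, in an intron of Dhc64C, the cytoplasmic dynein heavy chain gene, and 738 bp downstream of the nearest Dhc64C start. A lower peak between the starts of both genes (4825661 to 4825863, signal 346, rank 4511) lay at -77 bp and ranked 3736, 3483 and 11588. LeuRS-m therefore was bound at its own start by a peak of moderate signal, and its high rank came from the intron.

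ArgRS-m, the mitochondrial arginine enzyme, had a peak at -119 bp (3R, 7886802 to 7887102, signal 573, rank 2431) that ranked 2189 and 2073 in replicates 1 and 2. In replicate 3 no summit lay within 100 bp of it, although another top summit lay within 1000 bp of the start. CysRS-m, the mitochondrial cysteine enzyme, had a peak at -126 bp (2R, 14161269 to 14161475, signal 384, rank 4012), ranked 3881, 4082 and 5894, with its summit 42 bp upstream of O-fut1, which encodes an O-fucosyltransferase that modifies Notch.

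**Figure D2:**
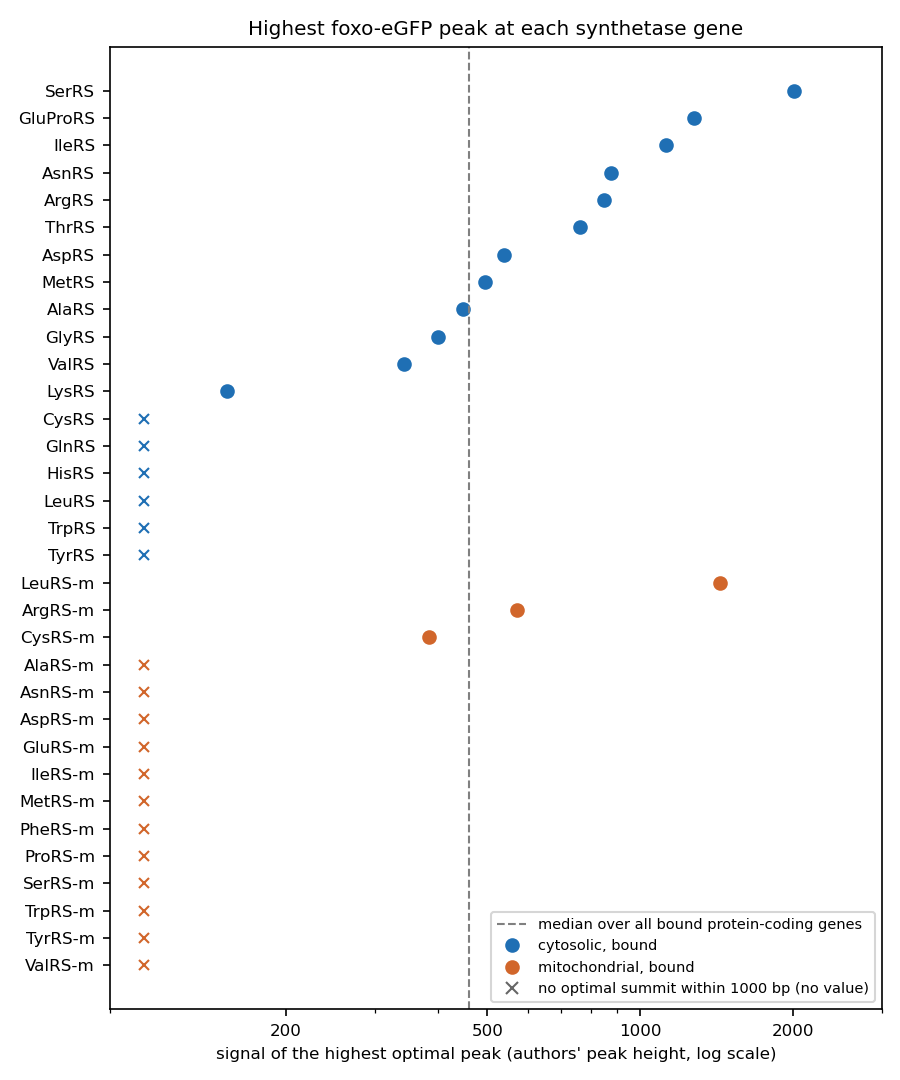
Signal of the highest optimal peak of each synthetase gene on a log scale, 1 point per bound gene, with crosses at an arbitrary place for genes that have no optimal summit within 1000 bp and so no value. Signals run from 153 at LysRS to 2013 at SerRS, and the dashed line is the median of 460 over all bound protein-coding genes.

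**Figure D3:**
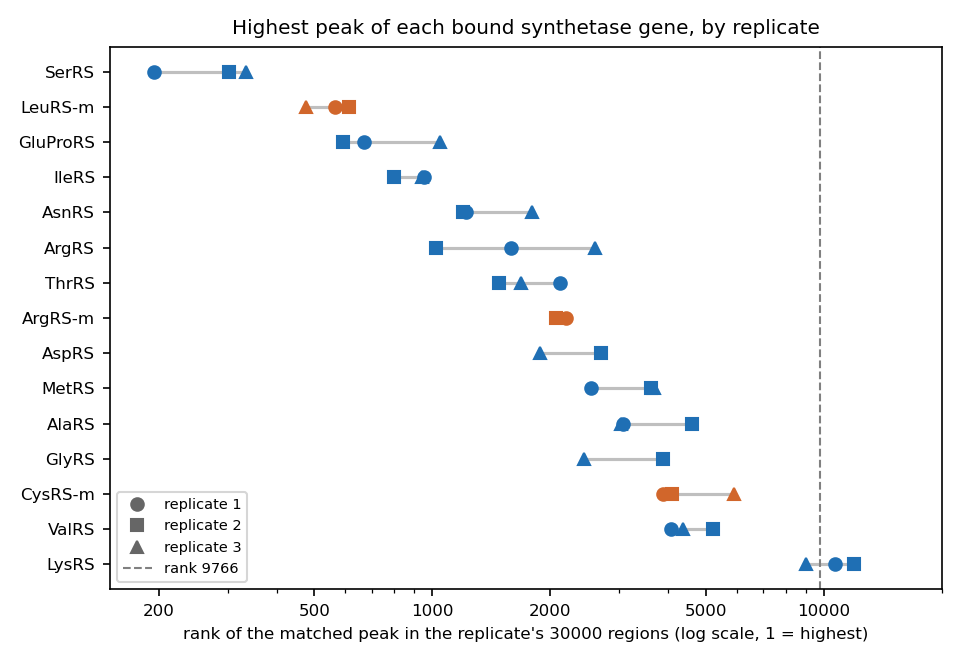
Rank of the highest peak of each bound synthetase gene among the 30000 regions of each replicate, on a log scale where 1 is the highest, in blue for cytosolic and orange for mitochondrial genes. SerRS, LeuRS-m, GluProRS and IleRS rank within 1047 in all 3 replicates, LysRS lies on both sides of rank 9766, and a symbol is missing where a replicate has no summit within 100 bp.

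The plot of signals shows a wide range of heights among the bound synthetases. The highest peaks of these genes had a median signal of 573 (650 for cytosolic and 573 for mitochondrial genes), where the median over all bound protein-coding genes was 460. All but LysRS, 14 of 15, were at or above the median of 321 over all optimal peaks. So were 3065 of the 4569 bound protein-coding genes. As the plot of ranks shows, 12 of the 15 highest summits were matched within 100 bp in all 3 replicates, and 11 of these were in the top 9766 of all 3. Counting any summit, 14 of the 15 bound genes were bound in every replicate. The optimal list was derived from lists of the same replicates, so this recurrence is not independent support. With only optimal peaks in the top of all 3 replicates, 12 of the 15 synthetase genes stayed bound. Of the 4569 bound protein-coding genes, 3461 did.

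Most summits lay upstream of a start of the synthetase gene, in space shared with a neighbour. The 15 genes had 19 summits, of which 17 were upstream of the nearest synthetase TSS. For AspRS that start is internal, and both its summits lie inside the gene. Of the highest summit per gene, 14 of 15 were upstream (93.3%, against 81.2% over all bound protein-coding genes). Measured from the outermost start of each gene, the upstream share was 86.7%. The median position of the highest summits from the nearest start was -129 bp, as it was over all bound genes. Of these summits, 12 of 15 lay within 250 bp of the start (80.0% against 62.7%). By annotation, 14 of the 19 summits were intergenic, 3 in a 5' UTR and 2 in an intron. None lay in a coding exon, and the same annotation counts over all bound genes are not given here.

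All 19 summits had the start of another protein-coding gene within 1000 bp, so that no peak can be assigned to a synthetase alone. Counting alternative starts, 16 of 19 lay between a start of the synthetase and that of a neighbour transcribed away from it. The synthetase start was the nearest one for 12 of the 19 and for 10 of the 15 highest summits. For ArgRS, AspRS, ValRS, CysRS-m and the higher peak of LeuRS-m the neighbour was nearer. The same counts over all bound protein-coding genes are not given here. An opposite-strand start within 1000 bp was present for 93.3% of bound synthetase genes and 58.2% of all bound protein-coding genes.

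**Figure D4:**
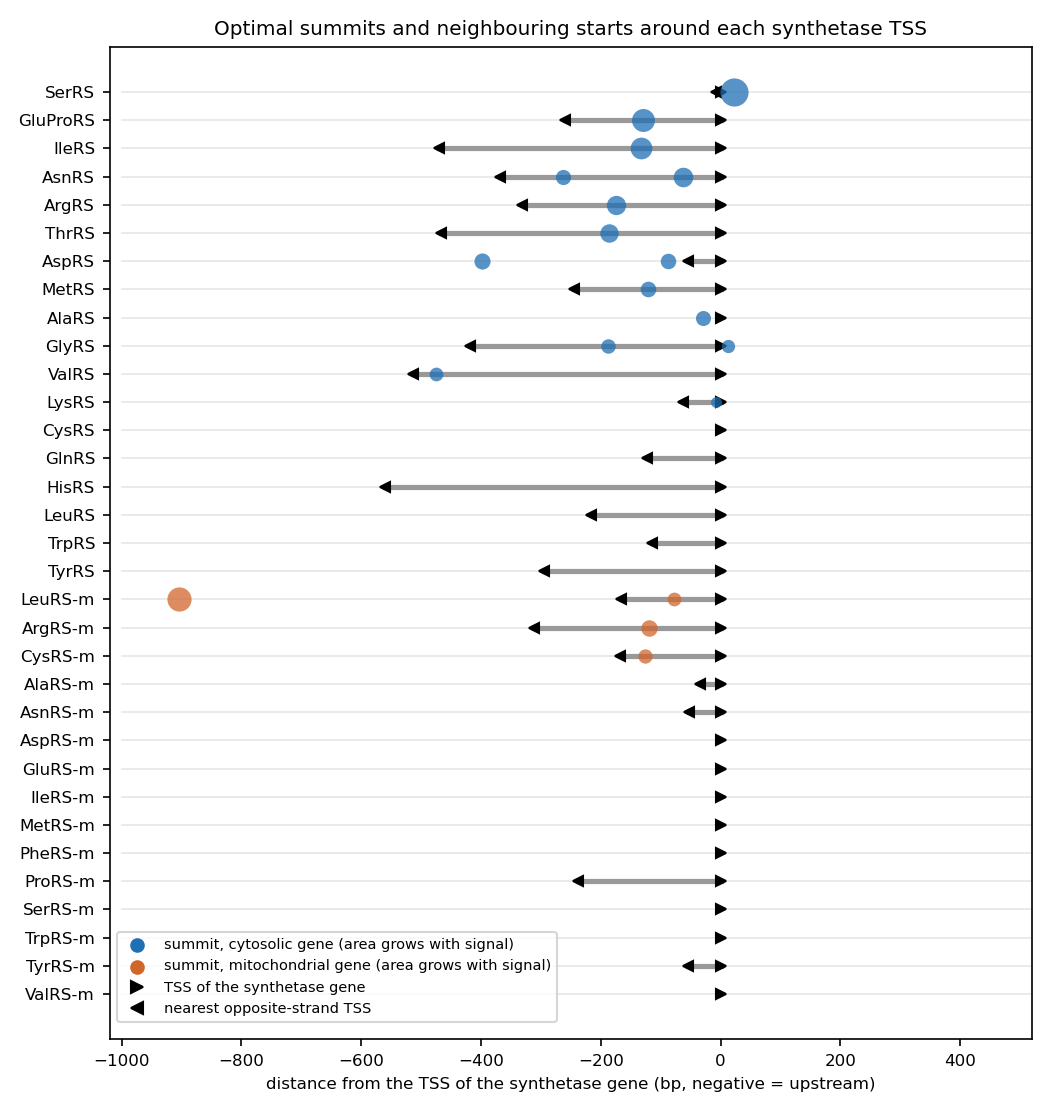
Position of each optimal summit relative to the TSS of the synthetase gene in bp, negative upstream, with circle area growing with signal; right-pointing triangles are synthetase starts and left-pointing ones the nearest opposite-strand start, drawn for the TSS nearest to the highest summit. Most circles sit on the bar that joins the starts of a head-to-head pair, and the circle of LeuRS-m at -904 bp stands apart.

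A start on the opposite strand was commoner beside cytosolic than beside mitochondrial synthetase genes. Within 1000 bp of a TSS it was present for 16 of 18 cytosolic genes (88.9%), 7 of 15 mitochondrial genes (46.7%) and 36.9% of all protein-coding genes. In all 23 cases the synthetase and its neighbour start head to head. This split was chosen after the values were seen. Among all protein-coding genes the share bound was 51.8% with such a neighbour and 21.7% without.

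Within genes that have an opposite-strand start, 11 of 16 cytosolic (68.8%) and 3 of 7 mitochondrial synthetase genes (42.9%) were bound. Without one, 1 of 2 cytosolic genes was bound (AlaRS, not CysRS) and 0 of 8 mitochondrial genes. In the replicates' top peaks, 12.5%, 0.0% and 12.5% of those 8 were bound. Among genes with an opposite-strand start, the cytosolic share exceeded the mitochondrial by 19.6, 11.6 and 11.6 points (mean 14.3 ± 4.64, SD, n = 3; exact p = 0.25), less than the 34.4, 40 and 33.3 points over all synthetase genes. The same cytosolic genes exceeded other genes of this kind by 6.05, 18.9 and 16.1 points (mean 13.7 ± 6.74, SD, n = 3; exact p = 0.25), and the mitochondrial ones differed by -13.6, 7.26 and 4.49 points (mean -0.615 ± 11.3, SD, n = 3; exact p = 1.0). All synthetase genes with an opposite-strand start exceeded other such genes by 0.0739, 15.3 and 12.6 points (mean 9.32 ± 8.13, SD, n = 3, exact p = 0.25). In replicate 1 these shares were thus nearly equal. The part that the neighbouring start plays in the difference between forms was not tested beyond this split.

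**Figure D5:**
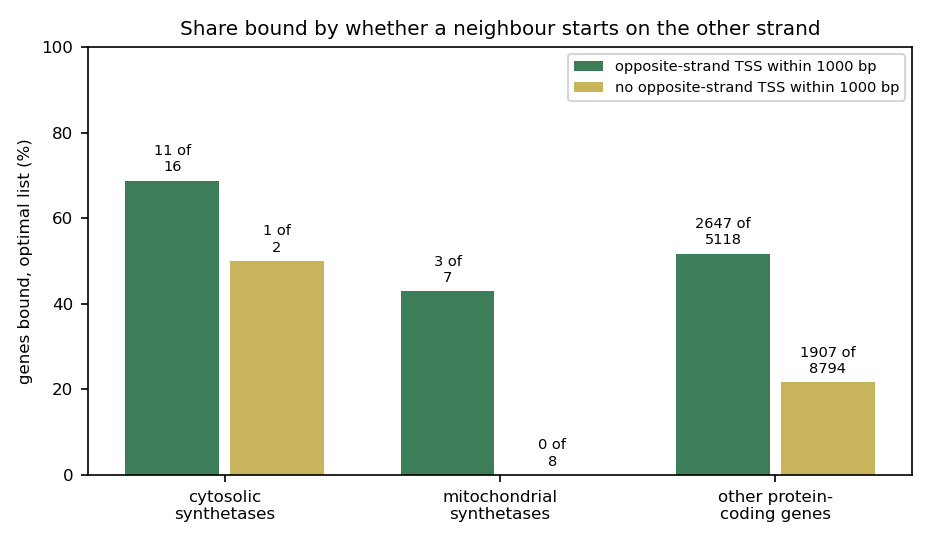
Share of genes bound in the optimal list, in percent, for genes with (green) and without (yellow) an opposite-strand protein-coding TSS within 1000 bp, with the number bound of the number in each set above the bar. The bars with a neighbour stand at 68.8%, 42.9% and 51.7% and those without at 50%, 0.0% and 21.7% for cytosolic synthetases, mitochondrial synthetases and other protein-coding genes.

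For 14 amino acids the set holds a gene of each form, and for 12 of these each form has a gene of its own. For glutamate and proline the cytosolic gene is GluProRS, which was bound, while GluRS-m and ProRS-m were not. Among the 12 amino acids with separate genes, the cytosolic gene alone was bound for 7: alanine, asparagine, aspartate, isoleucine, methionine, serine and valine. The mitochondrial gene alone was bound for 2, cysteine and leucine, both genes for arginine, and neither for tryptophan and tyrosine. With glutamate and proline the cytosolic gene alone was bound for 9 of 14. In the replicates' top peaks the cytosolic gene alone was bound for 6, 7 and 7 of the 12 amino acids and the mitochondrial gene alone for 2, 2 and 2. Over the 14 amino acids the cytosolic gene alone was bound for 8 in each replicate, since ProRS-m was bound in replicates 2 and 3 and AspRS-m in replicate 1.

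By enzyme class, cytosolic class II genes were bound in 7 of 8 cases (87.5%) and cytosolic class I genes in 4 of 9 (44.4%), with GluProRS, which joins an enzyme of each class, left out. The share over all protein-coding genes was 32.8% in the optimal list and 35.6%, 31.5% and 33.2% in the replicates. The unbound class II gene is HisRS, and the unbound class I genes are CysRS, GlnRS, LeuRS, TrpRS and TyrRS. In the replicates the class II counts were 6, 7 and 7 of 8, and the class I count was 4 of 9 each time. Among mitochondrial genes, 3 of 9 class I genes (33.3%) and 0 of 6 class II genes were bound in the optimal list. In the replicates the mitochondrial class I share was 33.3% each time, close to that of all genes, and the class II share was 16.7%, 16.7% and 33.3%, so that both classes stood at the same share in replicate 3. Over both forms, 7 of 18 class I (38.9%) and 7 of 14 class II genes (50%) were bound. The difference between classes was not tested.

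The unbound genes differed widely in their distance to the closest optimal peak. By the calling rule every such distance exceeds 1000 bp, and the same distances for other unbound protein-coding genes are not given here. The values are therefore not shown to be unusual. The nearest optimal summit lay 1928 to 18628 bp from a TSS of the 18 genes, with a median of 7384 bp. Among the cytosolic genes the distance was 3117 bp for GlnRS, 5720 for CysRS, 7189 for HisRS, 7579 for TyrRS, 15844 for TrpRS and 18628 for LeuRS. Among the mitochondrial genes it was 1928 bp for SerRS-m, 3753 for PheRS-m, 5447 for IleRS-m, 5454 for GluRS-m, 6595 for AlaRS-m, 6634 for TrpRS-m, 8535 for AspRS-m, 9797 for ValRS-m, 10160 for TyrRS-m, 15264 for ProRS-m, 15757 for MetRS-m and 18230 for AsnRS-m. No unbound member was therefore just outside the 1000 bp limit.

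The relaxed lists, which hold weaker regions and background too, added little. In the pooled list of 30000 regions only HisRS and TrpRS-m had a region within 1000 bp. That of HisRS, the histidine enzyme, had a signal of 75.4 and rank 16968 at 466 bp downstream, and that of TrpRS-m, the mitochondrial tryptophan enzyme, 132 and rank 10955 at -42 bp, just under the lowest optimal signal. TrpRS-m had a region in all 3 replicates, ranked 9831, 13046 and 12566, so its region was found each time but below the top 9766. For 8 of the 18 genes no region lay within 1000 bp in any replicate list.

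Of the unbound genes, 14 were bound in no replicate's top peaks and 4 in at least 1. ProRS-m, the mitochondrial proline enzyme, had a top peak in replicate 2 (rank 4279, -182 bp) and in replicate 3 (rank 3517, -219 bp) but no region within 1000 bp in replicate 1 or in the pooled list. PheRS-m had a top peak in replicate 3 alone (rank 4482, -128 bp), AspRS-m in replicate 1 alone (rank 7890, -11 bp) and HisRS in replicate 2 alone (rank 8723, 470 bp downstream). ProRS-m, PheRS-m and AspRS-m are the genes by which the mitochondrial count of a replicate exceeds that of the optimal list.

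The letters near the summits were compared with those at other promoters as a description. The highest summits of the 15 bound genes were searched within 100 bp, on both strands, beside all 4576 optimal summits near a protein-coding TSS. A forkhead core, in any of the spellings given above, was found at 8 of 15 summits (53.3%) and at 38.6% of the 4576. The count pools these spellings and is not split by word. None of the matches marked in the printed windows reads GTAAACA on either strand. In the promoter window of 250 bases before to 50 after the start it was present in 7 of 15 bound and 10 of 18 unbound synthetase genes, and in 46.2% of all 13945 genes. The replication-related element TATCGATA was found at 2 summits, of AlaRS and IleRS (13.3% against 6.01%). The promoter word GGTCACAC, known as Ohler motif 1, was found at 1, of ValRS (6.67% against 4.35%).

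The GAGA repeat GAGAGAGA was found at the summit of ArgRS-m alone (6.67% against 2.58%), where it runs past an end of the printed window. It was thus counted there though not all of its letters lie within 100 bp of the summit. The E-box CACGTG and the amino acid response letters TGATGCAA, known from the mammalian factor ATF4, were found at 0 of the 15 summits (2.36% and 0.437% of the 4576). No word overlaps another in letters except that the forkhead core words share most of theirs. With 15 genes these shares move by 6.67 percentage points for each gene.

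Related genes outside the naming rule were bound at GatA and Slimp alone. Of 11 genes for other tRNA charging factors these were 2: GatA, a subunit of the mitochondrial glutamyl-tRNA amidotransferase, with a peak of signal 1401 and rank 561 at -98 bp beside P5cr (3R, 19028783 to 19029105), and Slimp, a paralog of mitochondrial seryl-tRNA synthetase, with 315 at -170 bp. Neither gene of the cytosolic phenylalanine enzyme, alpha-PheRS and beta-PheRS, was bound, nor were AIMP1, AIMP2 and AIMP3, the scaffold proteins of the multi-synthetase complex. Counting alpha-PheRS and beta-PheRS among the cytosolic forms would lower the cytosolic share and its difference from the mitochondrial share. GatB, GatC, CG1750 and Dtd were not bound either. The 2 of 11 stand beside 32.8% of all protein-coding genes, and lists this short are given as counts only.

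Genes on both sides of tRNA charging were mixed, again beside 32.8% of all genes. Of 5 genes that respond to uncharged tRNA or act in the same stress pathway, 3 were bound: crc, the fly ATF4 (signal 541, -303 bp), PPP1R15, a phosphatase subunit that reverses eIF2 phosphorylation (252, -52 bp), and PEK, an eIF2 kinase (173, -218 bp). Gcn2, the kinase that senses uncharged tRNA, and eIF2alpha were not. Of 11 elongation factor genes, which bring charged tRNAs to the ribosome or move it on, 5 were bound, 4 of 7 cytosolic and 1 of 4 mitochondrial. The highest were eEF1gamma (867, -7 bp), eEF1alpha1 (508, -53 bp), eEF2 (442, -16 bp) and mEFTu1 (397, -195 bp).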

How the data were processed

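Binding of foxo-eGFP was measured by ChIP-seq in 3 biological replicates of whole larvae. Per the file headers and labels, the authors deposited narrowPeak lists on dm6 and dm3: a relaxed list of 30000 regions per replicate, another for the pooled replicates, and an optimal list of 9766 peaks derived from these lists. For the aligner, peak caller and reproducibility threshold, the sources used here name none. The signal column is the authors' peak height, deposited without a stated normalization, and was used only to rank peaks within a list. The deposited −log10 q-value column was saturated: 91.0% of the optimal peaks had its highest value, 4.25, and it was not used. Sequencing depth is unknown from peak lists. Signal ran from 151 to 10606 in the optimal list.

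Only dm6 lists were used. Summits were start plus offset, counted from 1. Genes came from Ensembl release 115 on the same assembly: 13945 protein-coding genes with 19607 TSSs, and 99.5% of their outermost start codons read ATG in the genome given. A replicate matched a peak by a summit within 100 bp. Shares per replicate used its 9766 highest peaks, compared over replicates by an exact sign-flip permutation test. Functions were tested on simulated data. Python 3.11.15, numpy 2.4.6, pandas 2.3.3, scipy 1.17.1 and matplotlib 3.10.9 were used. All members are named; neighbours are named when their TSS lies within 1000 bp of the same summit; of the related lists, bound genes are named, or the 4 of highest signal. Ribosomal protein genes were taken by symbol. The gene mEFG2 of the elongation factor list was not matched. Alternatives were other windows, stricter peaks, other TSS rules and each replicate left out. The members and lists were chosen with earlier results of these data known.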

Additional observations from a re-analysis of the deposited data

How the results depend on the processing

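The higher share of cytosolic than mitochondrial genes kept its direction under every alternative run, and so did the higher share of all synthetase genes than of other genes, with 1 exception: among genes without an opposite-strand start, an alternative added after seeing the data, the synthetase share was below that of others (difference -11.7 points, 10 genes). The cytosolic minus mitochondrial difference, 46.7 points in the optimal list, ranged from 36.7 to 46.7 over other windows, peaks and TSS rules, and from 34.4 to 41.1 with 1 replicate left out. Among alternatives added after seeing the data it was 25.9 points with an opposite-strand start, 50 without one, 41.7 over the 12 amino acids with separate genes and 47.8 over the 14 that include GluProRS with GluRS-m and ProRS-m. The difference between all synthetase genes and others, 12.7 points, ranged from 8.38 to 20.5, and from 12.4 to 17.8 with 1 replicate left out. Among genes with an opposite-strand start it was 9.15 points in the optimal list, but only 0.0739 points in replicate 1. The number of bound genes was 11 to 16, and 14 to 15 with 1 replicate left out (cytosolic 11 to 11, mitochondrial 3 to 4). AlaRS, AsnRS, GluProRS, IleRS, SerRS and LeuRS-m were bound under all 10 alternatives to the calling rule, and 16 genes under none. LeuRS-m met them through different peaks. Its peak at -77 bp ranked 11588 in replicate 3, so only the peak in the Dhc64C intron was in the top of all 3 replicates. LysRS lost its call with any replicate left out, among the 4883 highest peaks and among peaks in the top of all 3 replicates, which also dropped GlyRS and ArgRS-m. Taking only a peak's nearest start dropped ArgRS, AspRS, ValRS and CysRS-m, a peak that must cover the start dropped MetRS, ThrRS, ValRS and CysRS-m, and the outermost start alone dropped AspRS. A window of 2000 bp added SerRS-m, and leaving out replicate 1 added ProRS-m. Within 50 bp of the summit the replication-related element was found at 1 gene, the forkhead core at 5 and the GAGA repeat at 0; in the promoter window Ohler motif 1 was found in 0 and the E-box in 1. The causes were not tested. No comparison between conditions was possible because the series has 1 group. The differences between gene sets were taken within each replicate. Depth is unknown, so a gene without a peak is not shown to be unbound.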

Other observations

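The spacing between a synthetase start and the nearest opposite-strand start, looked at after the values were seen, differed among the members. With a gap of 100 bp or less, 3 of 3 cytosolic genes were bound (AspRS, LysRS and SerRS) and 0 of 3 mitochondrial genes (AlaRS-m, AsnRS-m and TyrRS-m), while 47.8% of all protein-coding genes with such a gap were bound. With a larger gap, 8 of 13 cytosolic (61.5%) and 3 of 4 mitochondrial genes were bound, beside 52.5% of all protein-coding genes in such head-to-head pairs. The median gap was 286 bp for bound and 123 bp for unbound synthetase genes, against 295 and 293 bp for bound and unbound protein-coding genes. With so few genes per class these are values only.

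Some synthetase genes without a summit at their start had summits farther along the gene body or up to 1000 bp beyond its ends. SerRS-m, the mitochondrial serine enzyme, had 3 such summits, the nearest 1928 bp from its TSS, and GlnRS, the glutamine enzyme, had 1, at 3117 bp. The other unbound genes had none.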
